A study of Mus musculus with 2 samples.

Results

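Monocytes and monocyte-like dendritic cells of the dorsal root ganglion were taken here as 115 of 19619 cell barcodes that passed quality limits, from 2 single-cell RNA libraries. A barcode counted as a member when it had at least 500 genes, under 20% mitochondrial molecules (unique molecular identifiers, UMIs), at least 1 UMI of Tyrobp, an adaptor of myeloid and natural killer cells, and a sum of Ly6c2, Plac8 and Cd209a of 2 UMIs or more and 5 per 10000 UMIs or more. It also had to lie under 20 per 10000 for C1qa, C1qb and C1qc, under 100 per 10000 for S100a8 and S100a9 and under 5 per 10000 for Cd79a, Cd79b and Ms4a1, which left out macrophages, neutrophils and B cells. Both libraries came from lumbar L4-5 ganglia of wildtype mice aged 8 weeks in the acetone-ether-water-treated group, a treatment that dries the skin and is used as a model of itch. No untreated animals are among the samples, so that no effect of the treatment can be given. The labels name the cell type as neuron, although whole dissociated ganglia, immune cells included, were loaded. They do not say whether the replicates came from different animals or pools. Every p-value therefore rests on how the differences between cell groups vary across these 2 libraries, and that spread may be technical.

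Classical monocytes carry high Ly6C and the chemokine receptor CCR2, leave the bone marrow through that receptor and enter tissues, where they can become macrophages or cells that present antigen. Non-classical monocytes carry low Ly6C, patrol the vessel wall and depend on CX3CR1. Monocyte-derived and type 2 conventional dendritic cells take up antigen and present it to CD4 T cells on MHC class II molecules, and mouse cells of this kind can carry Cd209a, one of several mouse genes related to human DC-SIGN. In ganglia, resident macrophages sit around the neuronal cell bodies, while monocytes and neutrophils can come from the blood.

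Members made up 0.552% of kept barcodes in replicate 1 (46 of 8329, exact 95% interval 0.405 to 0.736%) and 0.611% in replicate 2 (69 of 11290, 0.476 to 0.773%), a mean of 0.582% ± 0.0416 (SD, n = 2). The intervals cover counting error only, and they overlap. Members had a median of 6754.5 and 6184 UMIs and 2260.5 and 2175 genes per cell in replicates 1 and 2. For comparison, the macrophage gate (Tyrobp and at least 20 per 10000 of the C1q genes, without the other gates' genes) held 302 and 395 cells, or 6.57 and 5.72 per member. The neutrophil gate (at least 100 per 10000 of S100a8 and S100a9) held 70 and 104 cells, or 1.52 and 1.51 per member. In both libraries the members were the rarest of these 3 myeloid gates. The libraries shared 24 barcodes, none of them a member.

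The members were chosen by the measured counts of these genes, which are given as a description and not tested. Ly6c2, a surface protein of classical monocytes, stood at 1856 and 1203 UMIs per 1000000 (CPM) in the members of replicates 1 and 2, at 0 and 3.95 in the macrophage gate and at 860 and 493 in the neutrophil gate. Plac8, a small cysteine-rich protein of myeloid cells, stood at 2580 and 1352 CPM in the members, at 2.20 and 1.69 in macrophages and at 276 and 211 in neutrophils. Cd209a stood at 256 and 580 CPM in the members, at 3.67 and 12.4 in macrophages and at 0 in both neutrophil sums. Plac8 was found in 86 members, Ly6c2 in 66 and Cd209a in 35. Ly6c2 went with Plac8 in 61 cells, while 24 of the 35 Cd209a-positive cells had neither of the other genes. The 3 genes thus pick out a set that is largely split in this way. In GRCm38, Ly6c2 lies at chr15:75108158-75111970, Plac8 at chr5:100553725-100572245 and Cd209a at chr8:3743397-3748984, all on the reverse strand (GENCODE M21). Ly6c2 has a close paralog, Ly6c1, and reads of the pair can be misassigned.

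Few cells sat at the edge of the rule. Just inside, 1 member had 2 UMIs of the 3 genes and 15 members had 5 to 10 per 10000. Just outside, 13 barcodes that met the other limits had 1 UMI, and 10 had at least 2 UMIs but under 5 per 10000. The C1q limit removed 6 further barcodes, the S100a8 and S100a9 limit 88, and the B cell limit 5. Among the members, 108 had no C1q UMI, 83 had no UMI of S100a8 or S100a9, and 6 had a single Tyrobp UMI. The plot of the rule's genes per cell shows the split.

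**Figure D1:**
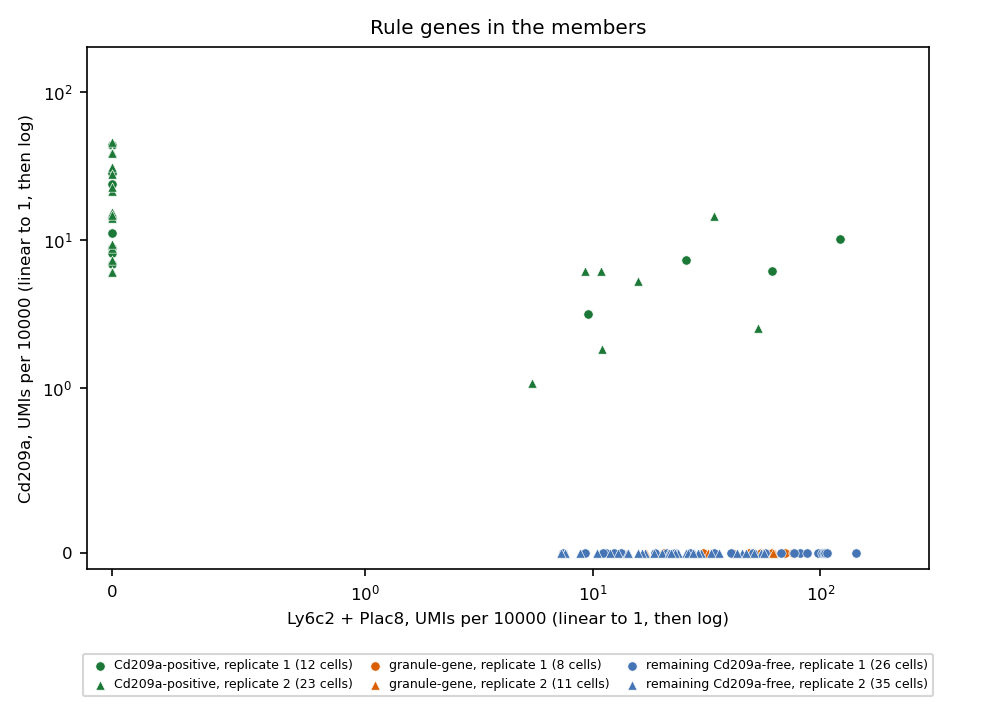
Each point is 1 of the 115 members, by its Ly6c2 and Plac8 UMIs per 10000 (horizontal) and its Cd209a UMIs per 10000 (vertical), on axes that are linear to 1 and then log. Colour shows the 3 sets described below, and the shape shows the library. Cd209a-positive cells lie mostly apart from the cells with Ly6c2 and Plac8: 24 of 35 have no UMI of either gene.

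The label was checked against marker lists. At least 3 genes of the classical monocyte list were found in 108 of 115 members, but also in 675 of 697 macrophages and 174 of 174 neutrophils. At least 3 genes of the list for type 2 and monocyte-derived dendritic cells were found in 66 members (34 of 35 with Cd209a and 32 of 80 without), in 503 of 697 macrophages and in 14 of 174 neutrophils. That list summed to 1182 and 2603 CPM in the members and to 2948 and 2928 in macrophages, so neither list by itself sets the members apart from macrophages. The summed classical monocyte list stood at 16632 and 20641 CPM in the members and at 11195 and 11857 in macrophages, but at 21949 and 20553 in neutrophils, which share several of its genes. The macrophage list stood at 7427 and 2905 CPM in the members against 61671 and 53327 in the macrophage gate, and the neutrophil list at 1967 and 1513 against 67262 and 60927 in the neutrophil gate. Markers of other cells were present in part: 14 members had at least 3 plasmacytoid dendritic cell genes, 5 had at least 3 natural killer genes and 4 had at least 3 T cell genes. The cells with natural killer or T cell genes were all in replicate 2. At a looser limit of 2 UMIs summed over the 3 lists, 68 of the 115 members, 17 of them with Cd209a, stayed below it. Natural killer genes summed to 152 and 926 CPM over the members, with 42.3% of the UMIs of replicate 2 in 1 cell, and T cell genes to 24.9 and 195 CPM. Erythroid genes summed to 109 and 10163 CPM, and 95.1% of those in replicate 2 came from 1 cell. Neuronal genes were in every member, at 2218 and 3357 CPM against 3629 and 4431 in macrophages and 6135 and 7219 in glia. Calca, a neuropeptide gene that myeloid cells should lack, was found in 94.8% of members and in 95.5% of glia. At least 3 Schwann cell genes were found in 15 members and at least 3 satellite glia genes in 8, against 100 and 77 of 697 macrophages. The satellite glia list reached 241 per 10000 in 1 member of replicate 1. The part of these markers in the results was not tested, beyond the counts given below without the cells concerned.

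The members fell into 3 sets, drawn after the values were seen and given as a description. Cd209a-positive cells numbered 35 (12 and 23 in replicates 1 and 2). A set of 19 Cd209a-free cells (8 and 11) had at least 2 UMIs in the sum of Elane, Mpo and Ctsg, the genes of neutrophil elastase, myeloperoxidase and cathepsin G, which are made for primary granules in bone marrow precursors. The remaining 61 cells (26 and 35) had neither. No Cd209a-positive cell had a UMI of Elane, Mpo or Ctsg. The same condition was met by 6 of 174 cells of the neutrophil gate and 0 of 697 of the macrophage gate. The leading genes of these 19 cells go against the label of mature monocytes or dendritic cells, and the cells are called here by those genes.

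The granule-gene cells were the largest by UMIs, with medians of 20589 and 11841 against 5701.5 and 4121 in the remaining Cd209a-free cells and 6287.5 and 6729 in the Cd209a-positive cells. The 19 cells held 314511 UMIs, against 339897 in the 61 remaining and 238726 in the 35 Cd209a-positive cells. They therefore weigh more in the members' summed CPM than their number. Elane stood at 1811 and 2816 CPM in the granule-gene cells, at 5.58 and 0 in the remaining cells and at 0 in both Cd209a-positive sums. Prtn3, proteinase 3, which was not part of the condition, stood at 2631 and 3773 CPM there, at 94.9 and 49.8 in the remaining cells and at 0 in the Cd209a-positive cells. Ms4a3, a gene of granulocyte-monocyte precursors, stood at 334 and 348 CPM in the granule-gene cells, and Myb, a transcription factor of blood cell precursors, was found in 12 of the 19. The proliferation list summed to 4137 and 4833 CPM there, against 1619 and 1070 in the remaining cells and 756 and 1192 in the Cd209a-positive cells. Mki67, a marker of cycling cells, was in 14 of the 19. Plac8 was in all 19 and Ly6c2 in 15. These cells held few MHC class II molecules: H2-Aa was at 0 and 14.5 CPM.

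The remaining Cd209a-free cells had the largest sum of the classical monocyte list. Its sums were 28089 and 33789 CPM, against 9009 and 17503 in granule-gene cells and 8432 and 9630 in Cd209a-positive cells. Hp did not follow in replicate 2, at 529 CPM against 602 in the granule-gene cells. The 5 members with at least 3 natural killer genes and the 4 with at least 3 T cell genes were in the remaining set. Chil3 is a chitinase-like protein of monocytes and neutrophils. It stood at 1831 and 3203 CPM in the remaining cells, at 50.9 and 980 in the granule-gene cells and at 0 in the Cd209a-positive cells. Fn1, fibronectin, stood at 854 and 1219 CPM there, at 255 and 435 in the granule-gene cells and at 11.6 and 19.6 in the Cd209a-positive cells. The list of non-classical monocyte genes summed to 3065 and 2121 CPM in this set, to 538 and 508 in the granule-gene cells and to 1314 and 871 in the Cd209a-positive cells, but its genes were not spread alike. Ace, the angiotensin-converting enzyme, was found in 15 of the 61 cells and Treml4, a receptor of Ly6C-low monocytes, in 12, and both were at 0 in the other sets. Cx3cr1, the fractalkine receptor, stood at 123 and 211 CPM in the remaining cells, at 39.6 and 7.26 in the granule-gene cells and at 11.6 and 26.2 in the Cd209a-positive cells. Spn, the sialoglycoprotein CD43, was found in 15 of 19 granule-gene cells (102 and 109 CPM) and in 15 of the 61 remaining cells (44.7 and 118 CPM). Ear2, a ribonuclease with close copies, stood at 105 and 124 CPM in the Cd209a-positive cells and at 128 and 62.2 in the remaining cells. The plot of genes by set shows the levels of Ace and Treml4.

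**Figure D2:**
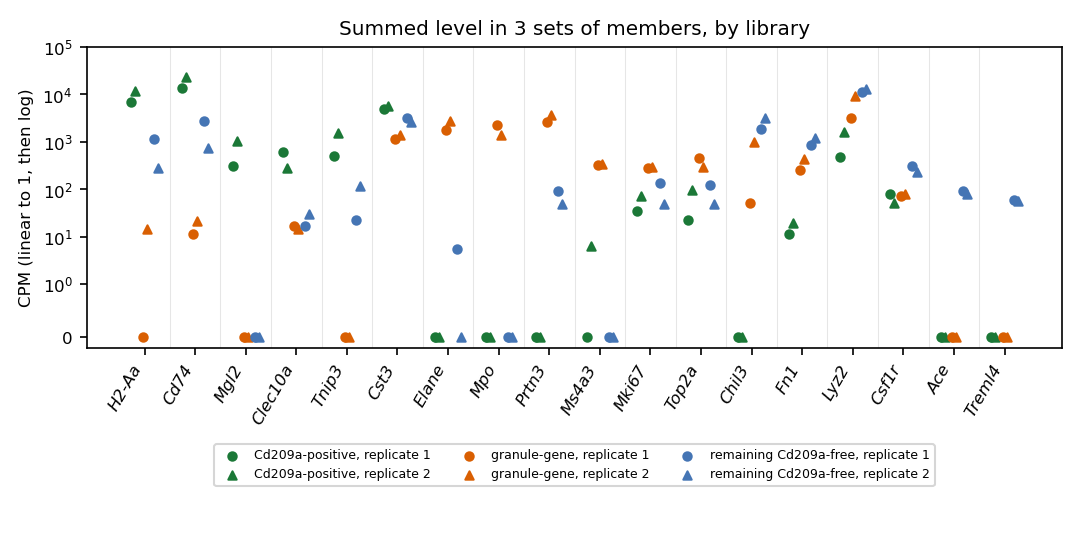
Level of selected genes (CPM, UMIs per 1000000 of the set's summed UMIs, log axis that is linear under 1) in the 3 sets of members, with circles for replicate 1 and triangles for replicate 2. Granule genes stand in the 19 granule-gene cells, Chil3 and Fn1 are higher in the 61 remaining Cd209a-free cells than in Cd209a-positive cells, and MHC class II genes are highest in the 35 Cd209a-positive cells.

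Class II promoters carry a conserved Y box that binds NF-Y, and granule genes of myeloid precursors carry sites for PU.1. The 250 bases before the RefSeq start of 3 class II genes and 3 granule genes are shown because the levels of these genes split the members (GRCm38.p6, printed 5′ to 3′ on the gene's strand, chr17:34287824-34288073 on the reverse strand, chr17:34305617-34305866 and chr17:34152941-34153190 on the forward strand, then chr10:79886062-79886311, chr10:79879417-79879666 and chr11:87793534-87793783 on the forward strand). Capitals mark TGATTGG or its reverse CCAATCA in the class II genes and GAGGAAGT or its reverse ACTTCCTC in the granule genes.
H2-Aa: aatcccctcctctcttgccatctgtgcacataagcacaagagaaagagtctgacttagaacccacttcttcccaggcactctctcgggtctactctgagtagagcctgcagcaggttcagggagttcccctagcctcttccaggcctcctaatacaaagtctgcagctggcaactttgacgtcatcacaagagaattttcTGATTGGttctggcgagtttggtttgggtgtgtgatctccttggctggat
H2-Eb1: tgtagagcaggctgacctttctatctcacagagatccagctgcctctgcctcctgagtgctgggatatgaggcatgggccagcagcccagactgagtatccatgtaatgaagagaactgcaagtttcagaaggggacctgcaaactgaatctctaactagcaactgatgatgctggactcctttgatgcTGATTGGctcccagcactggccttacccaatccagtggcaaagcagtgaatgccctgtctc
H2-DMb1: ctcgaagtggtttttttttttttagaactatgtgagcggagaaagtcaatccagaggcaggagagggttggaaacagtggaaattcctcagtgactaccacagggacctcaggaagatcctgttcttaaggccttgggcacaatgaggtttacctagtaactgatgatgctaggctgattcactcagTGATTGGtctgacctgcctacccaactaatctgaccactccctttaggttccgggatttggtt
Elane: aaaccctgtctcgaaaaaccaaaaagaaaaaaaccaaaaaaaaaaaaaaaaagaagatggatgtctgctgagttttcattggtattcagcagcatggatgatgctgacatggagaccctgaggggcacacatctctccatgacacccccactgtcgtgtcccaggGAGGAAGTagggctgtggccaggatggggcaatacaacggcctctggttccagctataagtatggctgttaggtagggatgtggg
Prtn3: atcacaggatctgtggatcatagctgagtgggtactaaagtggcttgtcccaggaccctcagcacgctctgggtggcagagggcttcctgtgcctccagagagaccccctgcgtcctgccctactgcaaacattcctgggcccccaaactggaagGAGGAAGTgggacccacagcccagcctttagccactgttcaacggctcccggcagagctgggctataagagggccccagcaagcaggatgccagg
Mpo: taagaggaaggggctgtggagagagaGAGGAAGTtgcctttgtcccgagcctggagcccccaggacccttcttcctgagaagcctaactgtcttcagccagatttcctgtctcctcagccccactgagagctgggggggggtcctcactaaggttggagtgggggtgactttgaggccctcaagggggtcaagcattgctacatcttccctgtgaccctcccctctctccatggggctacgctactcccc

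Both strands were searched, for words picked after the sequences had been seen, and the words do not overlap each other. TGATTGG was in 6 of the 9 genes of the class II list that had a RefSeq window (H2-Aa, H2-Eb1, H2-DMb1, H2-DMb2, H2-Oa and H2-Ob), against 7.23% of all 32851 windows of this length. It began 50 bases before the start in H2-Aa, 61 in H2-Eb1 and 63 in H2-DMb1. The windows of Ctss, H2-DMa and Ifi30 did not hold it. GAGGAAGT was in Elane, Prtn3 and Mpo, but not in Ctsg, against 2.44% of all windows. A match is a description of the letters, not evidence of binding in these cells.

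Members were first compared with the macrophage gate, the question being how the cells of these gates differ. Where the cells of either gate lay in the tissue, and whether they were resident, was not measured. Because the gates were cut with 12 genes, genes that go with them in the same cell types differ by that choice, and the 12 genes were not tested. Of 7719 genes tested, 546 (7.07%) were higher in the members and 364 (4.72%) lower, 910 (11.8%) in all (edgeR quasi-likelihood test on UMI sums per gate and library, Benjamini-Hochberg adjusted p under 0.05). Of these, 907 had the same direction in both libraries. The count was 610 without the 19 granule-gene cells. The plot of levels by gate shows the genes that the comparisons turn on.

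**Figure D3:**
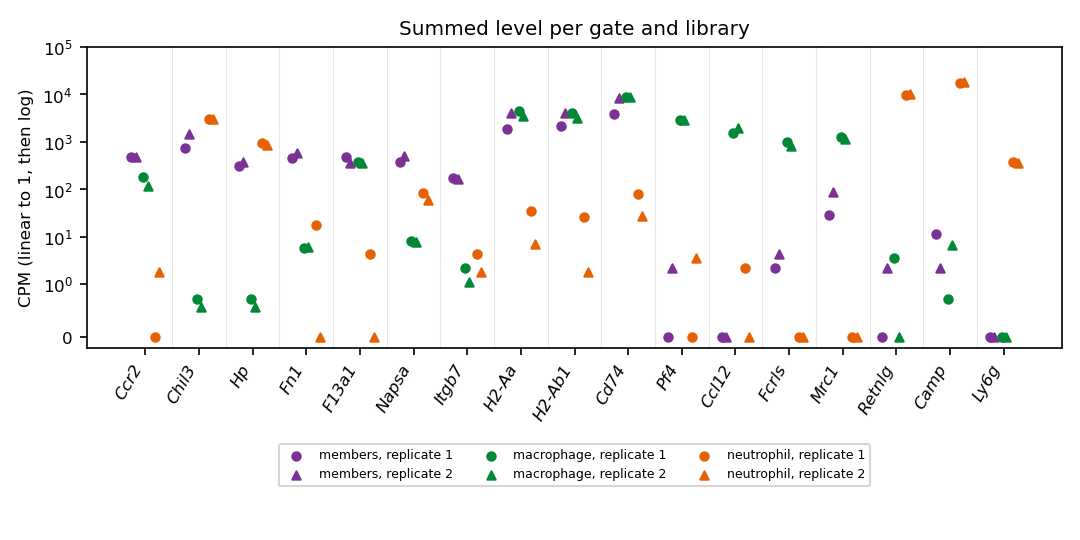
Level of selected genes (CPM, on a log axis that is linear under 1) in members, macrophage gate and neutrophil gate, with circles for replicate 1 and triangles for replicate 2. Ccr2 is higher in both member sums (484 and 472) than in macrophages (185 and 116), and Pf4 and Ccl12 are at or near 0 in the members.

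Among classical monocyte genes, 12 of 21 tested were higher in the members and 1 was lower, with a median log2 difference of 2.13 against -0.01 over all genes. Ccr2, the receptor for CCL2 through which monocytes leave the marrow, stood at 484 and 472 CPM in the members and at 185 and 116 in macrophages, a log2 difference of 1.70 ± 0.31 (SE, adjusted p = 0.00656). The groups did not overlap, and the cells that carried it were not equally common: with each cell thinned to 1000 UMIs, 36.5% of 115 members (27.7 to 46.0%) had a Ccr2 UMI against 7.60% of 671 macrophages and 0.115% of 9550 glia. Unthinned shares were 69.6, 19.1 and 0.287%, at median depths of 6754.5 and 6184 UMIs in members and 7335 and 3627 in glia. Chil3 stood at 763 and 1440 CPM in 36 members and rested on 2 UMIs in macrophages, a ratio of 1733 (exact interval for the counts 478 to 14329). Its level in the neutrophil gate was 3059 and 2975 CPM, above the members. Hp, haptoglobin, stood at 312 and 374 CPM against 2 UMIs in macrophages, a ratio of 539 (148 to 4471). Slpi, a secreted protease inhibitor, and F10, coagulation factor X, followed, with a ratio of 614 (109 to 24408) and at least 86.6-fold. Slpi too lay above the members in the neutrophil gate, at 1155 and 1127 CPM against 113 and 277. A fold against a count of 0 is given as a lower bound, with 3 counts over the group as the floor.

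The others of this list were calcium-binding, matrix and lectin genes. Fn1 stood at 450 and 574 CPM in the members against 5.87 and 6.21 in macrophages, 6.36 ± 0.60 higher on the log2 scale (adjusted p = 0.000236). S100a4 stood at 912 and 1414 against 87.3 and 125 (3.45 ± 0.33), and Lgals3, galectin-3, at 1105 and 1367 against 65.3 and 107 (3.86 ± 0.36). Both genes were in most members, with a UMI in 88 and 90 of them. Thbs1, thrombospondin-1, had 127 and 534 CPM in the members against 14.7 and 13.5. The exception was Fcgr1, the high-affinity IgG receptor, at 47.5 and 13.3 CPM in the members against 376 and 205 in macrophages, -3.33 ± 0.38 on the log2 scale (adjusted p = 0.000764).

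Non-classical monocyte genes were higher for 6 of 12 tested and lower for 2. Itgal, the alpha chain of the integrin LFA-1, stood at 115 and 88.6 CPM in the members against 3.67 and 2.26 in macrophages, 5.04 ± 0.37 higher on the log2 scale (adjusted p = 5.45e-05). The neutrophil gate had Itgal at 106 and 76.3 CPM. Spn stood at 58.9 and 93.1 CPM in the members against 2.93 and 2.82 in macrophages (4.66 ± 0.47), and 33 of its 68 UMIs in the members were in granule-gene cells. Ace stood at 38.5 and 28.8 CPM in 15 members against 2 UMIs in macrophages, a ratio of 52.7 (13.4 to 455). Cx3cr1, which also marks resident macrophages, was lower in the members, at 67.9 and 86.4 CPM against 982 and 482 (-3.16 ± 0.38, adjusted p = 0.00186).

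Adhesion and homing genes were higher for 8 of 14 and lower for 1. Itgb7, the beta chain of the gut-homing integrin, stood at 174 and 168 CPM in the members against 2.20 and 1.13 in macrophages, the largest log2 difference of this list among those fitted, at 6.59 ± 0.46 (adjusted p = 4.21e-05). Its partner chain Itga4 stood at 163 and 193 against 58.7 and 33.3 (2.00 ± 0.31). Cd44, the hyaluronan receptor, had 260 and 383 CPM against 41.8 and 73.3, and Emilin2, a matrix glycoprotein, 106 and 117 against 11.7 and 16.4. Icam1, the ligand of LFA-1, was lower in the members at 83.8 and 68.7 CPM against 131 and 182 (-1.04 ± 0.30, adjusted p = 0.0489), a call that ended without the granule-gene cells (adjusted p = 0.426).

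Chemokine ligands ran the other way, with 1 of 16 higher and 10 lower in the members, and a median log2 difference of -3.48. Ccl2, the ligand of CCR2, stood at 40.7 and 210 CPM in the members against 857 and 3845 in macrophages, -4.30 ± 0.31 (adjusted p = 5.45e-05). Ccl7, a second CCR2 ligand, stood at 6.79 and 28.8 against 603 and 3648, and Cxcl2, a ligand that draws neutrophils, at 52.1 and 51.0 against 880 and 4323. Each was several times higher in the macrophages of replicate 2 than in those of replicate 1. Ccl12 was at 0 in the members against 1570 and 1982 CPM, at least 537-fold lower, and Ccl24 and Ccl8 were at 0 too, at least 61.2-fold and 49.7-fold lower. Pf4, platelet factor 4, had 1 UMI in the members against 2853 and 2909 CPM in macrophages, a ratio of 2576 (462 to 101777). The ligand that was higher was Ccl6, at 254 and 405 CPM against 144 and 119 (1.34 ± 0.33, adjusted p = 0.0285). Of the receptors, 3 of 8 were higher and 1 lower. Cxcr4, which holds leukocytes in the marrow, stood at 346 and 137 CPM in the members against 57.9 and 75.0 (1.72 ± 0.36), and Ccr7, which guides dendritic cells to lymph nodes, at 4.53 and 48.7 CPM in 6 members and at 0 in macrophages, at least 28.1-fold higher over both libraries, a bound that rests on replicate 2.

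Of the macrophage list, 20 of 21 genes were lower in the members and none higher, and the C1q limit of the rule bears on this count. Mrc1, the mannose receptor CD206, stood at 29.4 and 86.4 CPM against 1291 and 1128 (-4.45 ± 0.46, adjusted p = 0.00051). Csf1r, the receptor that macrophages need to survive, stood at 174 and 126 against 1156 and 910 (-2.79 ± 0.33). Maf, a transcription factor of macrophages, stood at 47.5 and 31.0 against 1181 and 538 (-4.39 ± 0.31). Fcrls, a receptor of microglia and related macrophages, had 3 UMIs in the members, a ratio of 267 (91.2 to 1294). Cbr2, Igf1 and Hpgds had 1 UMI each, with ratios of 252 (45.1 to 9955), 182 (32.6 to 7210) and 154 (27.6 to 6108), and Slco2b1 had none and was at least 44.7-fold lower. Ms4a7, a relative of CD20 in macrophages, stood at 0 and 8.86 CPM in the members against 820 and 666. Apoe, a lipid carrier that glia also make, was found in 111 members at 6324 and 1923 CPM against 46957 and 40868.

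MHC class II genes did not separate members from macrophages as a list: 2 of 11 were higher and 1 lower. H2-Aa, an alpha chain, stood at 1840 and 4114 CPM in the members and at 4440 and 3486 in macrophages, so that the groups overlapped (-0.43 ± 0.47, adjusted p = 0.613). H2-Ab1 and Cd74, the invariant chain, did not pass either, at -0.26 ± 0.50 and -0.54 ± 0.44. All 3 point estimates turned positive without the granule-gene cells, at 0.18, 0.37 and 0.074. The members that carried H2-Aa were 46 of 115, or 40.0%, against 72.3% of macrophages and 2.58% of glia. H2-DMb2 and H2-Oa, partners in loading peptide, were higher, at 27.2 and 42.1 against 2.93 and 1.13 CPM (4.05 ± 0.66, adjusted p = 0.00393) and at 27.2 and 73.1 against 3.67 and 0.564 CPM (4.55 ± 0.75, adjusted p = 0.00531).

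Genes of type 2 and monocyte-derived dendritic cells were higher for 6 of 11 and lower for 3. Napsa, an aspartic protease, stood at 376 and 505 CPM in the members against 8.07 and 7.90 in macrophages, 5.75 ± 0.39 higher on the log2 scale (adjusted p = 3.91e-05). It was found in 95 members, in all 3 sets, against 2.15% of macrophages and 0.390% of glia. Flt3, the receptor of a dendritic cell growth factor, stood at 22.6 and 55.4 against 3.67 and 3.38 (3.38 ± 0.70). Ifitm1 was higher too (5.06 ± 0.86), on UMIs of which 1 cell held 60.3%. Mgl2 and Tmem176b, which ganglion macrophages also carry, were lower in the members, at 61.1 and 352 against 615 and 599 CPM and at 152 and 301 against 1294 and 1142 CPM. Without the granule-gene cells the calls of Mgl2 and Ifitm1 ended, at adjusted p = 0.127 and 0.0527.

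Genes of granules were higher in the members through few cells, and genes of division were higher through more of them. Elane stood at 727 and 860 CPM in 17 members and at 0 in macrophages, at least 830-fold higher, with Mpo at least 699-fold and Ctsg at least 537-fold. Prtn3 stood at 1091 and 1170 CPM in 28 members against 0.733 and 1.69 (9.60 ± 0.46, adjusted p = 2.25e-05), and Ly6d, a surface protein of lymphoid and plasmacytoid precursors, was at least 63.2-fold higher on 7 cells. Of proliferation genes, 10 of 12 were higher, and 5 of 11 without the 19 granule-gene cells. At least 3 of these genes were found in 40 of 115 members, 11 of them Cd209a-positive, and in 46 of 697 macrophages, at depths that were not matched. By replicate they were in 8 of 8 and 9 of 11 granule-gene cells. The Cd209a-positive cells had 5 of 12 and 6 of 23, and the remaining cells 8 of 26 and 4 of 35. Stmn1 and Tubb5 of this list did not pass. They stood at 266 and 322 and at 444 and 465 CPM in macrophages, so a cell can reach 3 genes partly through them. Top2a, the topoisomerase of dividing cells, stood at 240 and 142 CPM against 20.5 and 3.38 (4.08 ± 0.53), and Birc5, survivin, at 131 and 115 against 11.0 and 2.26 (4.26 ± 0.53). Top2a was 2.88 higher on the log2 scale without the granule-gene cells (adjusted p = 0.0118).

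Lysosome genes were lower for 13 of 19 and higher for 1. Lgmn, legumain, stood at 104 and 120 CPM against 934 and 948 (-3.08 ± 0.25, adjusted p = 9.71e-05), and Ctsb, cathepsin B, at 593 and 620 against 2101 and 1797. Of pattern and Fc receptors, 9 of 16 were lower and none higher. Fcgr3, a low-affinity IgG receptor, stood at 92.8 and 146 against 470 and 408 (-1.87 ± 0.33). Of genes of eicosanoid synthesis and reception, prostaglandin genes included, 3 of 13 were higher (Alox5ap, Lta4h and Ltb4r1) and 3 lower (Ltc4s, Hpgds and Ptgs1). Ltb4r1, the receptor for leukotriene B4, stood at 43.0 and 102 CPM in the members against 2.93 and 1.13 (5.10 ± 0.62, adjusted p = 0.000693), while Ltc4s, which makes leukotriene C4, had 2 UMIs in the members against 167 and 173 CPM, a ratio of 75.9 (20.9 to 628). Of growth factor receptors 4 of 19 were higher and 3 lower, with Csf2rb, the common beta chain for GM-CSF, at 102 and 155 against 41.8 and 37.8 (1.72 ± 0.46) and Tgfbr2 lower at 36.2 and 31.0 against 194 and 137. Of immediate early genes, which dissociation can induce, 4 of 13 were lower and none higher, Egr1 at 215 and 259 CPM against 670 and 939. Of 21 interferon-stimulated genes 6 were lower and none higher, but 1 was lower without the granule-gene cells. Ifit3 stood at 18.1 and 11.1 CPM against 205 and 35.5 (-2.84 ± 0.57, adjusted p = 0.0108). None of 12 inflammatory cytokine genes passed. Il1b stood at 1650 and 1883 CPM in the members against 455 and 1627 (0.86 ± 0.49, adjusted p = 0.308). The plot of list counts sets this comparison beside that with neutrophils.

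**Figure D4:**
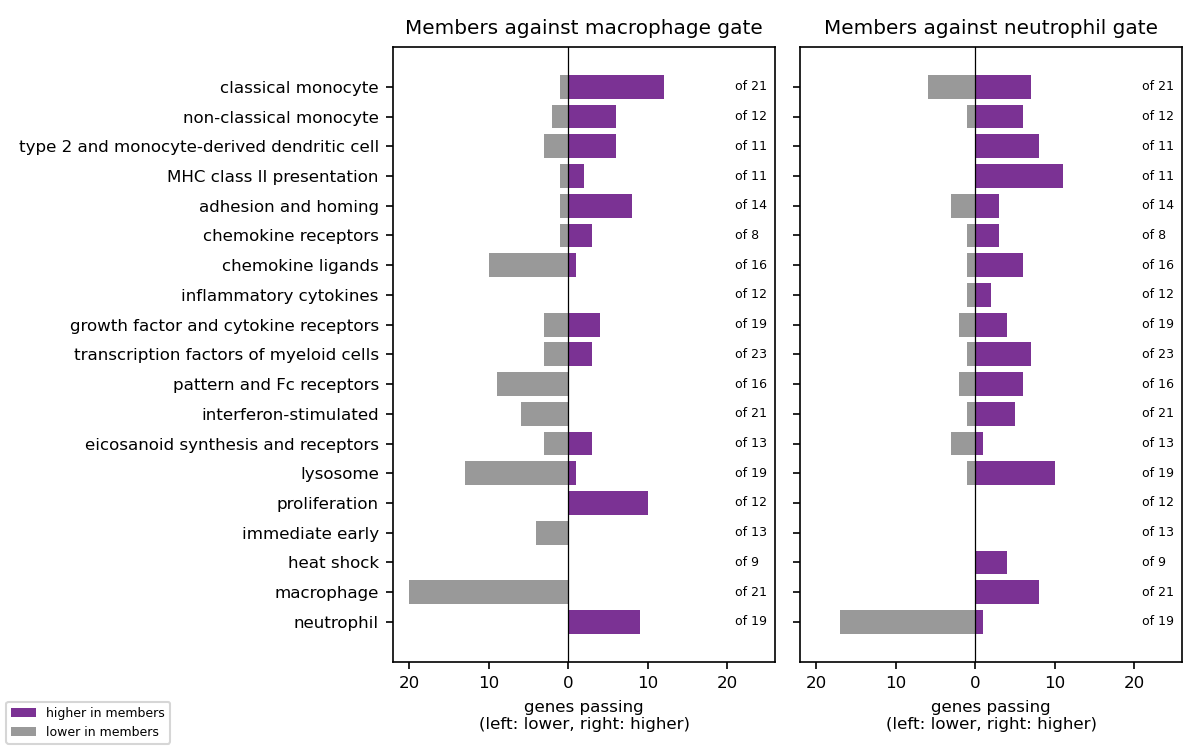
Number of genes of each list that were higher (to the right) or lower (to the left) in members than in macrophages (first panel) and than in neutrophils (second panel) at an adjusted p under 0.05, with the number tested beside each bar. Macrophage genes were lower for 20 of 21 against macrophages, and MHC class II genes were higher for 2 of 11 against macrophages and 11 of 11 against neutrophils.

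The second comparison was with neutrophils, which share with monocytes their source in the marrow and Ly6c2. Of 7719 genes 593 (7.68%) were higher in the members and 484 (6.27%) lower, 1077 (14.0%) in all, by the same edgeR test. With the sums scaled by UMI totals alone the split was 836 higher and 366 lower, since the median over all genes then stood at 0.18. The count was 887 without the granule-gene cells.

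All 11 MHC class II genes tested were higher in the members than in neutrophils, with a median log2 difference of 6.64, or 6.16 with genes at 0 set to their bound. H2-Aa stood at 1840 and 4114 CPM against 35.4 and 7.27 (6.92 ± 0.66, adjusted p = 0.000332), and Cd74 at 3846 and 8337 against 79.6 and 27.3 (6.61 ± 0.58). H2-Ab1 and H2-Eb1, the beta chains, differed by 7.60 ± 0.74 and 7.87 ± 0.56. Ciita, the master regulator of class II transcription, was at 36.2 and 24.4 CPM in the members and at 0 in neutrophils, at least 10.1-fold higher. The count was again 11 of 11 without the granule-gene cells. Of the members' H2-Aa UMIs, 2420 were in the 35 Cd209a-positive cells, 248 in the 61 remaining cells and 2 in the granule-gene cells. The rule let cells in on Cd209a alone, so its own values bear on this count and on that of the dendritic cell list. The dendritic cell list was higher for 8 of 11: Clec10a, a lectin that binds N-acetylgalactosamine, at least 41.1-fold, Tnip3 at least 112-fold, and the transcription factors Irf4 and Batf3 at least 8.23-fold and 7.11-fold.

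Classical monocyte genes went in both directions, 7 of 21 higher and 6 lower. Ccr2 had 1 UMI in the neutrophil gate against 484 and 472 CPM in the members, a ratio of 479 (85.5 to 18971). F13a1, the A chain of coagulation factor XIII, stood at 480 and 368 CPM against 4.42 and 0, a ratio of 212 (58.3 to 1758). Ms4a6c stood at 589 and 536 against 37.6 and 9.09 (4.50 ± 0.48, adjusted p = 0.000546), and it was found in 88 members. S100a4 was higher by 3.48 ± 0.35. Lower in the members were Hp at 312 and 374 against 940 and 851 (-1.60 ± 0.29), S100a6 at 1990 and 2200 against 4273 and 5525, and Thbs1 at 127 and 534 against 1102 and 1085. Hp and Thbs1 thus stood between the gates: above macrophages and below neutrophils.

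Receptors and transcription factors differed in both directions. Csf1r stood at 174 and 126 CPM in the members against 17.7 and 10.9 (3.17 ± 0.43, adjusted p = 0.00125), and Csf3r, the G-CSF receptor of granulocytes, at 54.3 and 19.9 against 341 and 184 (-3.06 ± 0.42, adjusted p = 0.00182). Cxcr2, the neutrophil receptor for CXCL2, was lower at 9.05 and 0 against 316 and 133. Cx3cr1 was at 0 in neutrophils, and the members were at least 25.8-fold higher. Irf8, a factor that directs precursors to monocytes and dendritic cells, stood at 283 and 193 CPM against 11.1 and 0 (5.28 ± 0.67, adjusted p = 0.000933). Runx3 was higher by 4.41 ± 0.57, while Cebpe, a factor of granulocyte maturation, was lower at 18.1 and 13.3 against 139 and 133 (-3.32 ± 0.39).

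Lysosome genes were higher for 10 of 19 and lower for 1. Ctss, cathepsin S, which trims the invariant chain, stood at 575 and 645 CPM against 19.9 and 16.4 (4.87 ± 0.34, adjusted p = 5.75e-05), and Ctsc, which activates granule proteases, at 419 and 459 against 22.1 and 16.4 (4.30 ± 0.31). Itga4 was higher by 3.56 ± 0.41, Itgb7 had a ratio of 57.2 (19.2 to 281), and Itgam, the CD11b chain, was lower at 129 and 144 against 493 and 305. Cd48 had 1 UMI in neutrophils, a ratio of 199 (35.2 to 7889). BC035044, which has no settled function, was at least 25.1-fold higher on 27 cells. Of 16 chemokine ligands 6 were higher and 1 lower. Ccl9 stood at 240 and 397 CPM in 68 members against 15.5 and 3.64 (4.87 ± 0.56), whereas Ccl5, at least 109-fold higher, stood at 4.53 and 643 CPM, came from 7 cells and did not pass with DESeq2 (adjusted p = 0.163). Alox5, the 5-lipoxygenase, was lower at 2.26 and 8.86 against 75.2 and 72.7 (-3.89 ± 0.54).

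Of the neutrophil list, 17 of 19 genes were lower in the members and 1 was higher. The S100a8 and S100a9 limit, which divides these gates, bears on this count and on the folds below, so they are a description. Retnlg had 1 UMI in the members against 9617 and 10258 CPM, a ratio of 8904 (1598 to 351715). The secondary granule genes Camp, Ngp and Ltf differed by -11.54 ± 0.65, -10.36 ± 0.69 and -10.21 ± 0.43 on the log2 scale, and each had UMIs in 2 members. Ly6g, the surface marker of neutrophils, Chil1, Asprv1, Itgb2l and the stefin genes Cstdc4 and Stfa2l1 were at 0 in the members. Their bounds ran from at least 48.4-fold for Itgb2l to at least 109-fold lower for Ly6g, and the stefins have near copies between which reads can be split. The gene that was higher was Mpo, at 914 and 428 CPM against 206 and 120 (1.78 ± 0.26, adjusted p = 0.00345). All of its UMIs in the members were in the granule-gene cells, which were defined by Mpo, Elane and Ctsg.

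Heat shock genes followed the library as well as the gate. The list summed to 24181 and 5521 CPM in the members, 16546 and 7039 in macrophages and 5373 and 4240 in neutrophils. Of 9 genes 4 were higher in the members than in neutrophils, and 0 without the replicate term or 2 with DESeq2. Dnajb1, a co-chaperone, stood at 946 and 129 CPM against 104 and 85.4, and Hspa8 at 4063 and 1892 against 1460 and 1254 (0.84 ± 0.24, adjusted p = 0.048). In replicate 2 the members' sum lay below that of macrophages, and what the library adds to these calls was not tested.

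The third comparison was within the members, between 35 Cd209a-positive and 80 Cd209a-free cells, and asked how the dendritic and monocyte ends of the gate differ. Cd209a itself divides the groups, and Ly6c2 and Plac8 lie lower in the positive cells by the rule, which let cells in on Cd209a alone. Of 6906 genes 91 (1.32%) were higher and 34 (0.492%) lower, 125 (1.81%) in all, each with the same direction in both libraries. With the sums scaled by UMI totals alone 81 were higher and 59 lower, with a median over all genes of -0.28 against -0.07. When the granule-gene cells were left out 57 passed, 53 of them among the 125 and in the same direction. Leaving out members with 2 or more UMIs of natural killer, T cell and plasmacytoid markers left 17 Cd209a-positive and 51 Cd209a-free cells, and 50 genes passed, 43 of them among the 125. Then 7 of 11 class II genes were higher.

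MHC class II genes were higher in Cd209a-positive cells, with 8 of 11 passing and a median log2 difference of 4.76. Cd209a goes with dendritic cells, and Cd209a-free cells could enter only by Ly6c2 and Plac8. The rule's own values therefore bear on the direction of this list, and the count is a description. The count was 8 of 11 without the granule-gene cells as well. Cd74 stood at 14004 and 23830 CPM in Cd209a-positive cells and at 1391 and 412 in Cd209a-free cells (4.76 ± 0.59, adjusted p = 0.00126), and every Cd209a-positive cell had it. H2-Aa stood at 7095 and 11850 against 571 and 157 (5.06 ± 0.63), H2-Ab1 at 8374 and 11679 against 635 and 137 (5.07 ± 0.70), and H2-Eb1 at 7048 and 9774 against 438 and 63.6 (5.43 ± 0.68). H2-Aa, H2-Ab1 and Cd74 stood above their levels in the macrophage gate in both libraries, a description without a test. Peptide-loading genes were higher too: H2-DMb1 stood at 535 and 910 against 92.7 and 50.2 (3.52 ± 0.44, adjusted p = 0.00126), and H2-DMa at 616 and 1074 against 177 and 131 (2.66 ± 0.41). H2-DMb2 had a ratio of 25.6 (7.90 to 132). H2-Aa and H2-DMb1 are among the genes whose upstream sequence holds TGATTGG. The window of H2-DMa, also higher, does not hold it, while that of H2-Ob, which did not pass, does. With cells thinned to 1000 UMIs, 97.1% of 35 Cd209a-positive cells (85.1 to 99.9%) and 18.8% of 80 Cd209a-free cells (10.9 to 29.0%) had a Cd74 UMI, against 1.91% of glia. The plot of class II levels per cell shows the split.

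**Figure D5:**
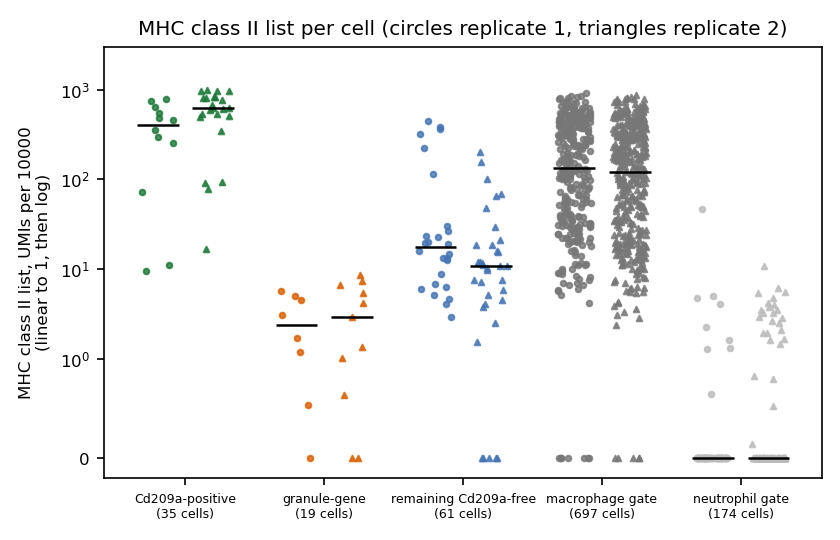
Summed level of the MHC class II list per cell, per 10000 UMIs, for the 3 sets of members and the macrophage and neutrophil gates, on an axis that is linear to 1 and then log, with 1 point per cell and a line at each library's median. Medians were 407 and 622 in Cd209a-positive cells, 2.40 and 2.93 in granule-gene cells and 17.6 and 10.7 in the remaining Cd209a-free cells.

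Lectins and other surface genes of dendritic cells went with class II, and the same limit of the rule holds for them. Mgl2, the CD301b lectin, stood at 314 and 1041 CPM in 17 Cd209a-positive cells and at 0 in Cd209a-free cells, at least 170-fold higher. Clec10a, the CD301a lectin, stood at 616 and 288 against 16.9 and 23.4 (4.61 ± 0.47, adjusted p = 0.000921), and Tnip3, an inhibitor of NF-kappaB signalling, at 512 and 1525 against 11.2 and 63.6 (5.17 ± 0.41). Mrc1 had a ratio of 44.8 (14.4 to 225), Clec4b1 of 82.2 (21.8 to 695), Dab2, an endocytic adaptor, of 87.7 (14.7 to 3572) and Klrb1b of 82.2 (13.7 to 3355). Of the 13 genes of the dendritic cell list tested, 6 were higher and none lower. The transcription factors Irf4 and Batf3, which type 2 and type 1 dendritic cells need, had ratios of 27.4 (6.66 to 242) and 14.6 (4.18 to 78.3), and Bhlhe40 stood at 291 and 367 against 36.5 and 77.0 (2.77 ± 0.49). Without the granule-gene cells Batf3, Bhlhe40 and Klrb1b did not pass, at adjusted p = 0.196, 0.104 and 0.102.

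Of the chemokine and cytokine lists, 2 of 18 chemokine ligands and 1 of 8 chemokine receptors were higher in Cd209a-positive cells. So were 3 of 11 inflammatory cytokine genes, and no gene of these lists was lower. Over all 6906 genes tested, 1.32% were higher and 0.492% lower. Ccl22, the ligand of CCR4 on regulatory T cells, stood at 105 and 373 CPM in 11 cells and at 0 in Cd209a-free cells, at least 60.3-fold higher. Ccr7 stood at 23.3 and 144 CPM in 6 Cd209a-positive cells and at 0 in the others, at least 21.9-fold higher over both libraries, a bound that rests on replicate 2. Tnfsf9, the ligand of 4-1BB, stood at 686 and 255 against 11.2 and 3.35 (6.04 ± 0.62, adjusted p = 0.00044), and Cxcl16, a chemokine anchored in the membrane, had a ratio of 55.7 (18.2 to 278). Il1b, interleukin-1 beta, stood at 4641 and 4871 CPM against 927 and 355 (3.08 ± 0.60, adjusted p = 0.0212). It was found in 25 of 35 Cd209a-positive cells and in 40 of 80 others, and without the granule-gene cells its adjusted p was 0.0929. Il1r2 and Ccr7 did not pass then either, at 0.0798 and 0.0613. Il1r2, the decoy receptor for interleukin-1, stood at 93.0 and 131 against 8.43 and 23.4, and Icam1 at 302 and 157 against 30.9 and 23.4 (3.18 ± 0.43).

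Classical monocyte genes were lower in Cd209a-positive cells for 7 of 21 and higher for none, with and without the granule-gene cells. Cd209a-free cells entered by Ly6c2 and Plac8, which go with classical monocyte genes, and 24 of the 35 Cd209a-positive cells had neither, so the rule's own values bear on the direction of this list and the count is a description. Chil3 stood at 0 in both libraries against 947 and 2177 CPM in Cd209a-free cells, at least 120-fold lower. Fn1 stood at 11.6 and 19.6 against 556 and 857 (-5.18 ± 0.74, adjusted p = 0.00334), and F13a1 had 2 UMIs in Cd209a-positive cells, a ratio of 68.6 (18.9 to 568). Hp had 1 UMI there, a ratio of 112 (19.9 to 4423), and Slpi, F10, Pglyrp1 and Pmf1 had none, with bounds of at least 21.3-fold, 9-fold, 5.47-fold and 4.62-fold. Lyz2, lysozyme, stood at 489 and 1597 against 7327 and 11206 (-3.02 ± 0.51), and Cebpb, a factor that Ly6C-low monocytes need, at 128 and 183 against 778 and 1259 (-2.50 ± 0.40). Prtn3, Elane, Mpo and Ctsg were at 0 as well, at least 123-fold, 86.2-fold, 72.6-fold and 55.8-fold lower, which the 19 granule-gene cells set. Without those cells F10 and Pmf1 did not pass, at adjusted p = 0.0564 and 0.0994.

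Some genes tied to both ends did not pass. Ccr2 stood at 465 and 484 CPM in Cd209a-positive cells and at 489 and 466 in Cd209a-free cells, overlapping ranges with a difference of 0.21 ± 0.32 (adjusted p = 0.852). It was found in 30 of 35 and in 50 of 80 cells. Napsa stood at 605 and 700 against 320 and 405 (1.05 ± 0.30, adjusted p = 0.121), and Csf1r at 81.4 and 52.4 against 197 and 164 (-1.27 ± 0.42, adjusted p = 0.186). Flt3 and Irf8 differed by 1.96 ± 0.77 and -0.79 ± 0.50. A p that misses the threshold does not show that the groups are alike at this number of cells.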

How the data were processed

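Single-cell RNA libraries (10x Genomics) of ganglion cells were processed with CASAVA 1.8 and Cell Ranger 5.0.1 on mm10, per the submitters' processing notes. The deposited matrices hold UMI counts per gene and barcode (31253 features), with 113251556 UMIs in 8818 barcodes of replicate 1 and 102347251 in 11767 barcodes of replicate 2. The authors' cell types were not given, so cells were chosen by the thresholds described. Counting strand is not given in the sources used here. Glia, used as background, were Tyrobp-free barcodes with at least 10 per 10000 of Fabp7.

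UMI counts were summed per gate and library, and CPM is UMIs per 1000000 of that sum. The sums of 4 gates (members, macrophages, neutrophils and 166 B cells) were fitted with edgeR 4.0.16 in R 4.3.3 (TMM, filterByExpr, gate and replicate as terms, quasi-likelihood test, Benjamini-Hochberg adjusted p under 0.05). The 3-set split was not fitted. Each cell's replicate number names its library, so gates are paired by library. Scripts were tested on simulated data. DESeq2 1.42.0 and the other alternatives are given in the closing part. Doublets were not removed in the values given, and 9 members were among the cells of highest Scrublet score (scanpy 1.11.5).

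The members, marker lists and pathway lists were chosen with earlier results of these data known. Genes named are the 10 with the largest change in each direction at 50 CPM or more, alike in sign in both libraries and neither mitochondrial, ribosomal nor unnamed, together with genes of the lists at 20 CPM or more. A few genes that the rule names are not reported here. The 250-base windows come from RefSeq (GRCm38.p6).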

Additional observations from a re-analysis of the deposited data

How the results depend on the processing

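The replicate block pairs the gates of 1 library. With no replicate block 610 genes passed against macrophages, 760 against neutrophils and 84 between Cd209a-positive and Cd209a-free members, in place of 910, 1077 and 125. Without a filter on low counts 1418, 1573 and 348 passed, and with cells thinned to 1000 UMIs 247, 427 and 23, of fewer genes tested. Leaving out members with lymphoid or plasmacytoid markers gave 735, 920 and 50 genes and shares of 0.348% and 0.345%. DESeq2 gave 624, 720 and 140. Leaving out granule-gene cells, chosen after seeing the data, gave 610, 887 and 57. Signs turned for H2-Aa, H2-Ab1 and Cd74 against macrophages (0.18, 0.37 and 0.074 without granule-gene cells), and leaving out a replicate gave a range of -1.34 to 0.20 for H2-Aa and -1.02 to 0.32 for H2-Ab1; these 3 genes had not passed with all members. Mpo against neutrophils turned to -0.94 without members with lymphoid or plasmacytoid markers and to -9.92 without granule-gene cells, a fitted value and no bound, since no Mpo UMI was left. Ccr2 between Cd209a-positive and Cd209a-free members turned to -0.15 without members with lymphoid or plasmacytoid markers, -0.52 when thinned, -0.20 without granule-gene cells; leaving out a replicate gave -0.13 to 0.27. Of 192 named results, 21 lost their call with DESeq2 and 21 without the block, Tnip3, Lyz2 and Thbs1 of the last comparison among the latter. With DESeq2, genes at 0 in the members such as Ccl24, Ccl8 and Ly6g were among those lost. Fits without 1 library have no residual degrees of freedom, so they gave values without a test. With the members of 2 libraries summed, genes at a few UMIs are limited by depth.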
